A study of Rattus norvegicus with 18 samples.

Results

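Casr encodes the calcium-sensing receptor, and its signal was followed across 18 arrays of INS1E cells, a line that was established from a rat insulinoma and secretes insulin. It is the row of the deposited signal table that carries its symbol. The gene itself was chosen by its own log2 signal on these arrays, high on some calcitriol and calcidiol arrays, and it is 1 of 9852 genes tested and of 13136 genes with a symbol. Its levels and the differences in its level are therefore given as a description, with no test. One probe set, 10754371 (Entrez gene 24247), stands for it. Total RNA, 150 ng a sample, was hybridised to Affymetrix Rat Gene 1.0 ST arrays, 1 sample an array.

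The 18 samples form 6 groups of 3. In the calcitriol with glucose group, cells were kept for 72 h with 10 nM calcitriol, which the labels call 1,25(OH)2vitamin D, and then received 22 mM glucose for 60 min. The calcitriol group had the same 72 h and no glucose in the last 60 min. The calcidiol with glucose and calcidiol groups were treated in the same way with 10 nM calcidiol, the 25(OH)vitamin D of the labels. The glucose group had no vitamin D and 22 mM glucose, and the control group had neither. All 6 groups were grown in medium with 11 mM glucose and spent 60 min in a buffer free of glucose before the last step, so that neither glucose state equals the culture medium. Calcitriol, the hormonally active form of vitamin D, differs from calcidiol, the main circulating form, by a further hydroxyl group at carbon 1. The line is a tumour line, and nothing in the labels tells whether a group's 3 samples were separate cultures, so that every spread and p-value below covers these samples only and may be technical.

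The calcium-sensing receptor is a class C G protein-coupled receptor at the cell surface that binds extracellular calcium. It couples to the Gq and G11 proteins, which activate phospholipase C and release calcium from intracellular stores, and to Gi proteins, which lower cyclic AMP. It is best known from the parathyroid gland, where it restrains the release of parathyroid hormone, and from the kidney, and pancreatic islet cells also carry it. Vitamin D acts through the vitamin D receptor, a nuclear receptor that pairs with a retinoid X receptor on DNA, and in human cells elements bound by it have been described in both promoters of CASR.

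In the rat assembly GRCr8, RefSeq places Casr on chromosome 11, from 77738398 to 77813639, a span of 75242 bases with 4 annotated transcripts. The 250 bases before the start site that RefSeq's promoter table uses lie inside that span, at chr11:77740364-77740613 on the plus strand. They are shown with those of Alcam (chr11:61805207-61805456, plus strand) and Relt (chr1:164626280-164626529, minus strand), 2 of the 3 genes whose signal followed that of Casr most closely over the arrays. Tnfrsf11b is the other. Capitals mark matches to 4 hexamers of the kind nuclear receptors bind, searched on both strands. Of 33469 rat promoters of the same length, 14.1% hold AGGTCA, 12.2% hold AGTTCA, 9.77% hold GGTTCA and 11.9% hold GGGTCA, and 39.1% hold any of the 4.
Casr: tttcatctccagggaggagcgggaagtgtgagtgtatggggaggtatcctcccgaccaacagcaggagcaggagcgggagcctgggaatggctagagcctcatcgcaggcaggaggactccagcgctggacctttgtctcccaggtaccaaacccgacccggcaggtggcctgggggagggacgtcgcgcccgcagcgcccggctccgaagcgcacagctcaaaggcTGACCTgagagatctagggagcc
Alcam: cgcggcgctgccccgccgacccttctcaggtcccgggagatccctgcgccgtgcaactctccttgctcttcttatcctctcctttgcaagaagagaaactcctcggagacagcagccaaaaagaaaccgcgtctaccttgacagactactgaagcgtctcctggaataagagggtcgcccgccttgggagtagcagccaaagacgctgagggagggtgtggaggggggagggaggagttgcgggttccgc
Relt: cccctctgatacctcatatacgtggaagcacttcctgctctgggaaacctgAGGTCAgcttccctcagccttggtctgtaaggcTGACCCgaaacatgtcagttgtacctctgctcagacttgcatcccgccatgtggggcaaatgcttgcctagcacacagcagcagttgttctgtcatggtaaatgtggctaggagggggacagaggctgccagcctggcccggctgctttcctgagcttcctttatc
The Casr sequence holds 1 match, TGACCT, the reverse complement of AGGTCA, at -23 to -18 from the start site (77740591 to 77740596). Alcam holds none, and Relt holds AGGTCA at -199 to -194 and TGACCC, the reverse complement of GGGTCA, at -166 to -161. A single match is thus common. None of these 3 sequences holds a direct repeat of such hexamers with 3 bases between them, the arrangement preferred by the vitamin D receptor, which 0.0926% of the promoters hold. These are matches of letters, and no binding was measured.

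The array medians lay between 7.52 and 7.63 on the log2 scale, but the arrays numbered 3 stood apart and partly went against their labels. Txnip, a gene whose transcription follows glucose metabolism, shows it. On the arrays numbered 1 and 2, its log2 signal was 12.18 to 12.33 with glucose and 10.39 to 10.53 without. On the arrays numbered 3 with glucose by their labels it was 12.28 after calcitriol, 10.23 after calcidiol and 10.33 without vitamin D. On those without glucose it was 12.11 after calcitriol, 10.44 after calcidiol and 9.88 without vitamin D. Nr4a1, an immediate early gene, divided these arrays in another way. Its log2 signal was 9.22 to 10.22 with glucose and 6.18 to 6.85 without on the arrays numbered 1 and 2. On arrays 3 it was 9.63 with glucose and 9.33 without after calcitriol, 8.67 with glucose and 8.95 without after calcidiol, and 9.84 with glucose and 6.504 without in the absence of vitamin D. Without vitamin D, Nr4a1 thus followed the glucose labels of arrays 3. Txnip was 0.44 higher with glucose there, against 1.81 and 1.83 on arrays 1 and 2. Both of these array 3 values of Txnip lay under its range without glucose on arrays 1 and 2. The labels were kept as given, whether samples were exchanged among arrays 3 was not tested, and values without these 6 arrays are given beside those of all 18. The beta-cell hormone genes named by the cell line's label were bright on every array, with Ins1 at 12.78 to 12.98 and Ins2 at 12.96 to 13.08, and Pdx1 was not analysed here.

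Casr was higher in signal on calcitriol arrays 1 and 2, and much higher on calcidiol arrays 3, than on any array without vitamin D. On calcitriol with glucose arrays 1, 2 and 3 its log2 signal was 7.18, 7.36 and 6.45, and on calcitriol arrays 1, 2 and 3 it was 7.36, 7.27 and 6.49. On calcidiol with glucose arrays 1, 2 and 3 it was 6.32, 6.48 and 9.55, and on calcidiol arrays it was 6.20, 6.30 and 9.52. Without vitamin D it was 6.31, 6.20 and 6.33 on the glucose arrays and 6.29, 6.19 and 6.43 on the control arrays. The high values thus fall on arrays 1 and 2 of the calcitriol groups and on array 3 of the calcidiol groups, in both glucose states alike. The remaining 12 arrays lay between 6.19 and 6.49. The plot of Casr on each array shows these 3 levels.

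**Figure D1:**
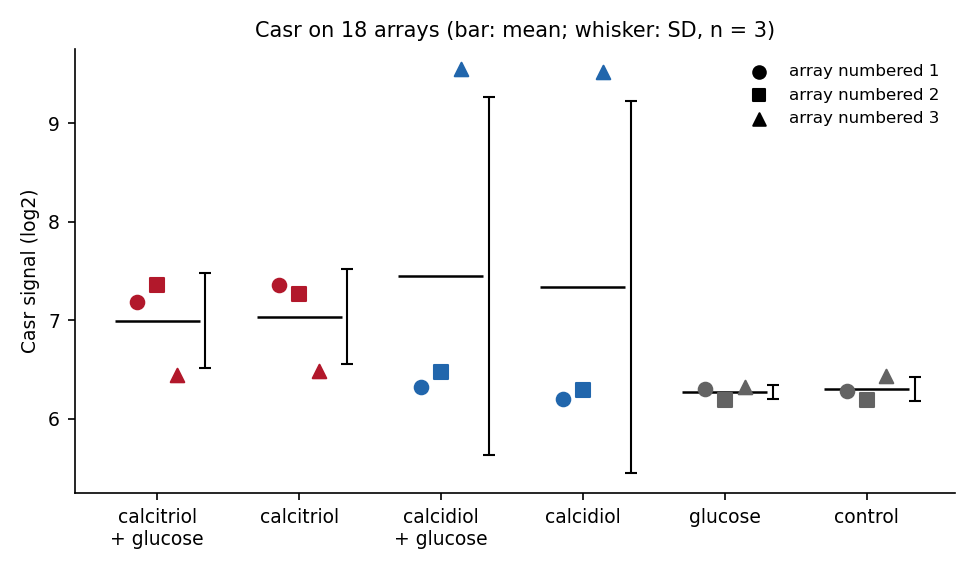
Log2 signal of Casr on each of the 18 arrays, by group, with the mean (bar) and SD (whisker, n = 3) of each group and symbols for the array number. Calcitriol arrays 1 and 2 sit between 7.18 and 7.36, calcidiol arrays 3 at 9.55 and 9.52, and the 6 arrays without vitamin D between 6.19 and 6.43.

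In order of mean log2 signal, Casr was at 7.45 ± 1.82 in calcidiol with glucose, 7.34 ± 1.89 in calcidiol, 7.04 ± 0.48 in calcitriol, 6.996 ± 0.48 in calcitriol with glucose, 6.30 ± 0.12 in control and 6.28 ± 0.07 in glucose (SD, n = 3 each). The first 4 groups did not differ beyond their spread, and neither did the last pair. Both calcitriol groups stayed above the control and glucose groups, although narrowly, since the lowest calcitriol array with glucose, at 6.45, was next to the highest control array, at 6.43. Over arrays 1 and 2 alone the order was different. Calcitriol then had 7.31, calcitriol with glucose 7.27, calcidiol with glucose 6.40, glucose 6.25, calcidiol 6.25 and control 6.24. The 2 calcidiol groups therefore stood first or among the others depending on 1 array in each. Over all 18 arrays the SD of Casr was 1.04, the 8th largest of the genes tested.

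The first question was what calcitriol did to Casr, set against no vitamin D. The mean difference was 0.72 on the log2 scale with glucose and 0.74 without, and 0.73 averaged over the glucose states, a 1.66-fold higher signal. With glucose, the lowest calcitriol array was at 6.45 and the highest array without vitamin D at 6.33. Without glucose these were 6.49 and 6.43. In this comparison limma called 0.0% of the 9852 genes in each state and averaged (60 had an unadjusted p under 0.05 averaged). Between arrays of the same number, the difference was 0.88 and 1.16 with glucose and 1.08 and 1.08 without for arrays 1 and 2. For arrays 3 it was 0.12 with glucose and 0.06 without. Without the arrays numbered 3 the averaged difference was 1.05, a 2.07-fold higher signal, and on arrays 3 alone it was 0.09, or 1.06-fold.

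Calcidiol against no vitamin D gave the reverse division of the arrays. The mean difference in Casr log2 signal was 1.17 with glucose and 1.04 without, with groups that overlapped in both states. Averaged over the glucose states it was 1.10, in a comparison where limma called 0.0% of genes (660 had an unadjusted p under 0.05). On arrays 3 the averaged difference was 3.15, an 8.90-fold higher signal after calcidiol. The level of Casr without vitamin D, 6.19 to 6.43, lies about the filter cut of 6.38, and folds over so dim a level are uncertain. On calcitriol arrays 3, Casr was at 6.45 and 6.49, near the level without vitamin D, and the 9.55 and 9.52 on calcidiol arrays 3 lie above every calcitriol array. Whether the vitamin D labels of arrays 3 were exchanged was not tested, and the 8.90-fold holds only if the labels are right. Without the arrays numbered 3 it was 0.08, or 1.06-fold, with values of 6.20 to 6.48 after calcidiol and 6.19 to 6.31 without vitamin D. Within calcidiol, arrays 3 exceeded arrays 1 and 2 by 3.21, or 9.25-fold. Whether the rise after calcidiol exists thus depends on array 3 of each calcidiol group.

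Calcitriol and calcidiol were given at the same 10 nM for the same 72 h, so that both forms can be set side by side. Casr differed between them by -0.45 with glucose and -0.30 without (calcitriol minus calcidiol, log2), both within a pooled SD of 1.33 and 1.38. The sign turned with the arrays used. Without the arrays numbered 3 the difference was 0.87 with glucose and 1.06 without, and the 4 calcitriol arrays, at 7.18 to 7.36, lay above the 4 calcidiol arrays, at 6.20 to 6.48. On arrays 3 it was -3.10 with glucose and -3.03 without. Which form of vitamin D went with more Casr signal cannot be read from the 18 arrays together.

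Glucose against none left Casr within its spread. The mean difference in log2 signal was -0.04 after calcitriol, 0.11 after calcidiol and -0.03 without vitamin D, each smaller than the SD of the groups compared. Between arrays of the same number the 9 differences ran from -0.18 to 0.18, while those of Txnip ran from -0.20 to 1.85. Averaged over the pretreatments the difference was 0.01 on all arrays and 0.04 without the arrays numbered 3. This mean rests on the pair of calcidiol arrays at 9.55 and 9.52, since it moved to -0.34 when the one with glucose was left out and to 0.38 when the one without was. Calcidiol array 3 with glucose was 0.03 above calcidiol array 3 without, so that the high level stood in both glucose states.

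Genes were then ranked by how closely their signal followed that of Casr over the 18 arrays, by Spearman's rho among the 1015 other genes with an SD of at least 0.2 log2. These values describe arrays that share the same groups and the same 6 arrays numbered 3, and carry no p. The 8 highest were Alcam, a cell adhesion molecule of the immunoglobulin family (rho 0.93), Tnfrsf11b, which encodes osteoprotegerin, the decoy receptor for RANK ligand (0.93), Relt, a member of the tumour necrosis factor receptor family (0.91), C2cd4a (0.89), Gab1, an adaptor of receptor tyrosine kinases (0.87), Cdhr1, a cadherin-related protein of photoreceptors (0.86), Dlst, a subunit of the oxoglutarate dehydrogenase complex (0.84), and Ros1, a receptor tyrosine kinase (0.83). The 4 lowest were Lgals2, which encodes a galectin (-0.76), Plac8 (-0.75), Cxadrl1 (-0.74) and Pak3, a protein kinase activated by Rac and Cdc42 (-0.71). Over the 12 arrays numbered 1 and 2, the rho of the 8 highest ran from 0.69 to 0.90, and 3 of them were again among the 8 highest. Without the 2 calcidiol arrays at 9.55 and 9.52 all 8 were again the 8 highest, with rho from 0.75 to 0.90.

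The values by array show the same 2 places of high signal. Alcam had a log2 signal of 10.07 and 10.01 on calcidiol arrays 3 with and without glucose, and 8.77 to 8.89 on calcidiol arrays 1 and 2. On calcitriol arrays 1 and 2 it was 9.27 and 9.09 with glucose and 9.24 and 9.02 without, against 8.66 to 8.80 on arrays 1 and 2 without vitamin D. Its array 3 values without vitamin D, 8.96 in both glucose states, were level with those after calcitriol, 8.90 with glucose and 8.96 without. Tnfrsf11b was at 8.68 and 8.89 on calcidiol arrays 3 and at 6.43 to 6.59 on calcidiol arrays 1 and 2. After calcitriol it was 7.48, 6.75 and 6.73 with glucose and 7.25, 6.60 and 6.91 without, all above the 6 arrays without vitamin D, at 6.19 to 6.54. On calcitriol arrays 3, Tnfrsf11b was 0.19 and 0.38 above its number-matched array with and without glucose, and Casr was 0.12 and 0.06 above its own. Casr there, at 6.45 and 6.49, also lay above the 6 arrays without vitamin D, but narrowly, since the highest of them was at 6.43. Ros1 was at 9.31 and 9.24 on calcidiol arrays 3 and at 7.80 to 8.14 on calcitriol arrays 1 and 2, against 6.85 to 7.23 on arrays 1 and 2 without vitamin D. Unlike Casr, it was also high on calcidiol arrays 2, at 7.57 with glucose and 7.70 without. Lgals2 ran the other way and was dimmest on calcidiol arrays 3, at 5.24 and 5.36, against 5.88 to 7.14 on the arrays without vitamin D.

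**Figure D2:**
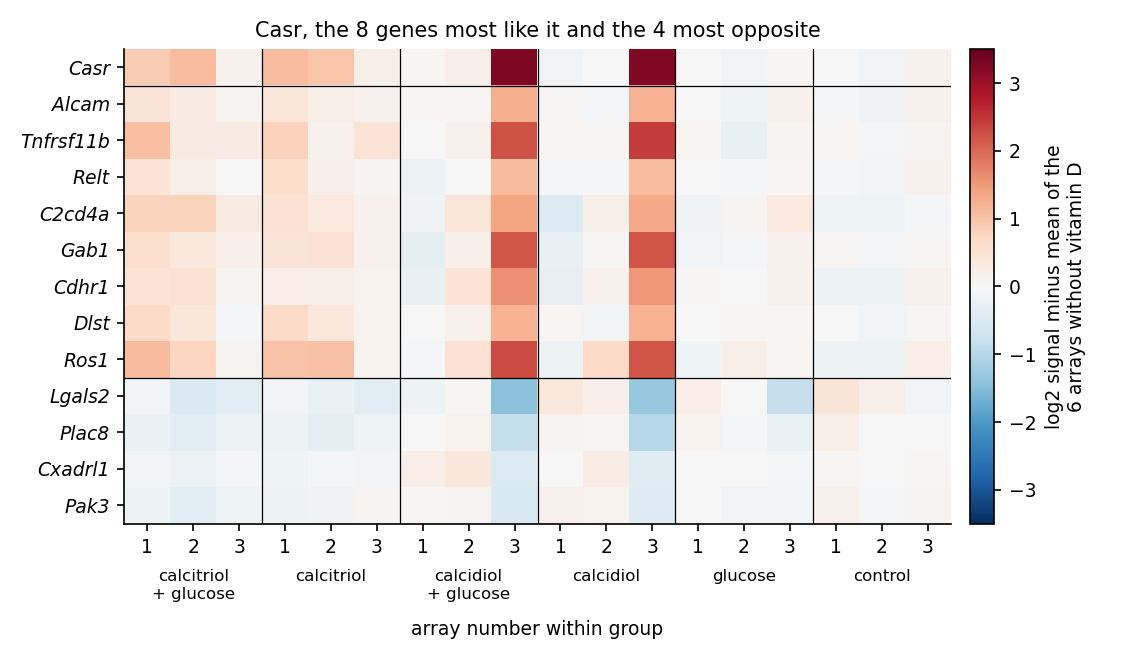
Log2 signal of Casr, the 8 genes with the highest and the 4 with the lowest Spearman's rho to it, on each array, as the difference from that gene's mean over the 6 arrays without vitamin D. Red cells (higher) lie on calcitriol arrays 1 and 2 and, more strongly, on calcidiol arrays 3, and the 4 lowest genes are blue (lower) on calcidiol arrays 3.

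A pair of differences that share no arrays was set side by side over all 9852 genes. The first was calcidiol arrays 3 minus calcidiol arrays 1 and 2, and the second was calcitriol arrays 1 and 2 minus arrays 1 and 2 without vitamin D. Casr ranked 2nd in the first, at 3.21, and 3rd in the second, at 1.05, while the median gene was at 0.03 and -0.01. S100g, which fell under the filter and is described below, was not among the ranked genes. Of the 20 highest genes in each, 11 were shared, which is 55.0% of either list. They were Casr, Adam23, Gab1, Gdap1, Igfbp5, Lims2, Lppr1, Nrcam, Ros1, Scnn1g and Tnfrsf11b. The filter used the mean over all 18 arrays. Without vitamin D, Casr (mean 6.29) and Lims2 (5.97 to 6.20) lie under its cut of 6.38. The means of Igfbp5 (arrays at 5.94 to 6.49) and Scnn1g (6.18 to 6.55) without vitamin D lie under it as well. Casr, Lims2, Igfbp5 and Scnn1g passed only through vitamin D arrays, which both differences use, so the shared list is no independent support. Above 1 log2 unit there were 53 genes in the first and 4 in the second, and these 4, Lppr1, Adam23, Casr and Ros1, were among the 53. For calcitriol array 3 minus array 3 without vitamin D, Casr was at 0.09 and ranked 1151st. Since Casr was picked with these values known, its own place is no evidence of anything further, and the ranks of the other genes are a description of these arrays.

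**Figure D3:**
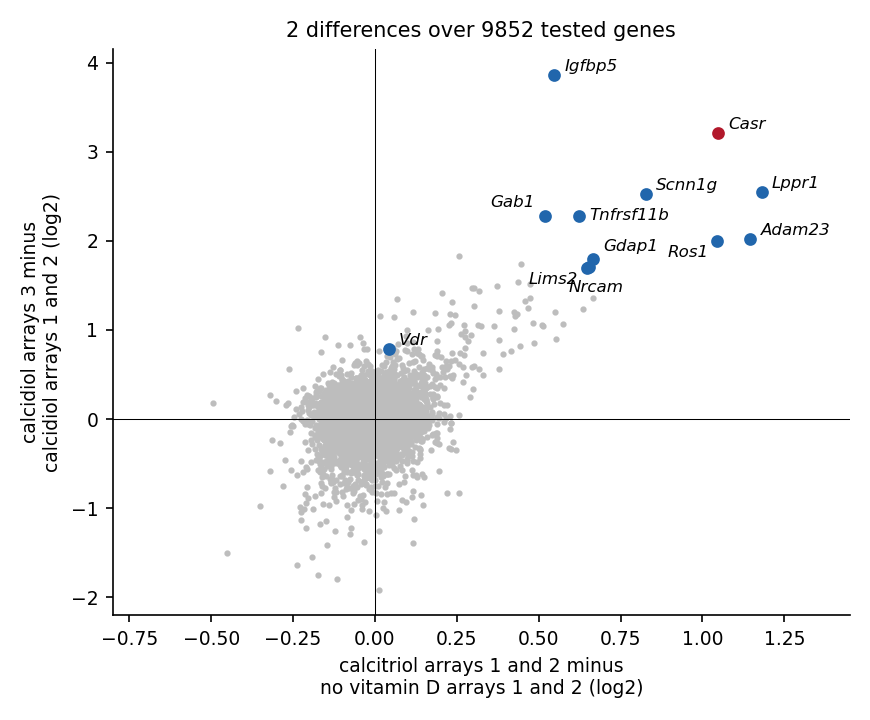
Each point is 1 of the 9852 tested genes, with calcitriol arrays 1 and 2 minus arrays 1 and 2 without vitamin D on the horizontal axis and calcidiol arrays 3 minus calcidiol arrays 1 and 2 on the vertical axis, both in log2 units. Casr (red) lies at 1.05 and 3.21, the 10 other genes in both lists of 20 (blue) lie to the upper right, and Vdr lies at 0.04 and 0.79.

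None of the genes through which the receptor signals passed the test for either form of vitamin D. Of a list of 54 such genes, 39 were tested, and limma called 0 of them for calcitriol, for calcidiol and between both forms, in either glucose state and averaged, where it called 0.0% of all genes. Averaged over the glucose states, 0 of the 39 had an unadjusted p under 0.05 for calcitriol, where 0.609% of all genes had, 3 for calcidiol, where 6.70% had, and 2 between the forms, where 2.95% had (291 genes). Without the arrays numbered 3 the list again had 0 called in each of these comparisons, where between 0.0% and 0.0305% of all genes were called (0.0305% for calcitriol and between the forms averaged over the glucose states, 0.0203% for calcitriol in either state, and 0.0203% and 0.0102% between the forms with and without glucose). With the array number as a block as well, 0 of the list were called against 0.0% to 0.213% of all genes, with 0.0914% for calcitriol averaged. Averaged over the glucose states, the median log2 difference of the list was -0.01 for calcitriol and -0.02 for calcidiol, next to -0.01 and -0.02 over all genes. On arrays 1 and 2 alone it was -0.02 for calcitriol and -0.0015 for calcidiol. Gnaq, the alpha subunit of Gq, differed by 0.03 after calcitriol (95% interval -0.05 to 0.11) and by 0.07 after calcidiol (-0.01 to 0.14). Gna11, the alpha subunit of G11, differed by -0.01 after calcitriol (-0.12 to 0.10) and by -0.07 after calcidiol (-0.18 to 0.04). Between calcitriol and calcidiol, the difference was -0.03 for Gnaq (-0.11 to 0.04) and 0.06 for Gna11 (-0.05 to 0.17). On the 18 arrays these intervals lie within 0.2 of 0 in both genes. In the fit of arrays 1 and 2 alone the difference for calcidiol was 0.06 for Gnaq (-0.06 to 0.17) and -0.09 for Gna11 (-0.24 to 0.06), which no longer excludes 0.2 for Gna11, and between the forms it was -0.0033 for Gnaq (-0.12 to 0.11) and 0.06 for Gna11 (-0.09 to 0.20). For calcitriol it was then 0.05 for Gnaq (-0.06 to 0.17) and -0.03 for Gna11 (-0.18 to 0.11).

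The list members with the smallest p for calcitriol and for calcidiol had Sar1a in common. For calcitriol they were Rab11a and Sar1a, small GTPases of recycling and of export from the endoplasmic reticulum, and Map2k1, a kinase of the ERK pathway, at -0.07, -0.05 and -0.06. For calcidiol they were Ap2m1, a subunit of the clathrin adaptor AP-2, Sar1a and Arrb2, which encodes beta-arrestin 2, at -0.14, -0.09 and -0.15. None passed, with an adjusted p by limma of 1.00 for the calcitriol 3 and of 0.722 to 0.733 for the calcidiol 3. Arrb2 also had the smallest p of the list between the forms, at 0.22 (95% interval 0.08 to 0.37, adjusted p = 0.997 by limma). When the arrays numbered 3 were left out, Rab11a, Sar1a and Map2k1 differed by -0.06 each for calcitriol, Ap2m1, Sar1a and Arrb2 by -0.17, -0.08 and -0.14 for calcidiol, and Arrb2 by 0.21 between the forms, and again none passed. All these differences are under 0.25 in size, and they are given because the rule for named genes asks for them.

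The vitamin D receptor gene Vdr was higher on the same 2 arrays as Casr. Its log2 signal was 8.49 and 8.41 on calcidiol arrays 3 with and without glucose, against 7.37 to 8.05 on calcidiol arrays 1 and 2. After calcitriol it was 7.47 to 7.57 on all 6 arrays, and without vitamin D it was 7.28 to 7.56. Vdr thus did not separate calcitriol arrays 1 and 2 from the arrays without vitamin D, which Casr did. For calcidiol the averaged difference was 0.46 (SE 0.16, adjusted p = 0.722 by limma), and 0.19 without the arrays numbered 3. For calcitriol it was 0.04 (95% interval -0.29 to 0.37), and between calcitriol and calcidiol it was -0.42 (-0.75 to -0.08, adjusted p = 0.997). With arrays 1 and 2 alone these were 0.04 (-0.22 to 0.30) and -0.15 (-0.41 to 0.11). The part of Vdr in the level of Casr was not tested. Of the 30 genes listed for the vitamin D system and for regulators of Casr, 17 were tested and 0 were called in any vitamin D comparison, with an averaged median of 0.01 for calcitriol and 0.02 for calcidiol, and of 0.01 and 0.04 without the arrays numbered 3, where again 0 were called. Gcm2, which drives Casr in the parathyroid, and Cyp24a1, the classical vitamin D target, were not analysed here.

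Among 29 tested genes of calcium entry, stores and extrusion, out of 41 listed, 0 were called for either form of vitamin D on the 18 arrays. S100g, which encodes the calcium-binding protein calbindin-D9k, was on this list but was not tested, because its mean signal fell under the filter. For the same reason it is absent from the ranking by rho and from the ranks and counts of the pair of differences. It had the pattern of Casr in a wider form. Its log2 signal was 9.55 and 9.61 on calcidiol arrays 3 with and without glucose, and 4.26 to 4.57 on calcidiol arrays 1 and 2. It was 5.67 and 5.69 with glucose and 5.20 and 5.17 without on calcitriol arrays 1 and 2, 4.18 and 4.25 on calcitriol arrays 3, and 4.15 to 4.37 on the 6 arrays without vitamin D. The 2 calcidiol arrays 3 and the 4 calcitriol arrays 1 and 2 thus stood above the other 12. Among the tested genes, Cacnb1, a beta subunit of voltage-gated calcium channels, is given as one that also stood out on these arrays. Its log2 signal was 9.11 and 9.01 on calcidiol arrays 3 with and without glucose, against 7.37 to 7.87 on calcidiol arrays 1 and 2. It was 8.16 to 8.33 on calcitriol arrays 1 and 2 and 7.86 on both calcitriol arrays 3. Without vitamin D it was 7.64 to 7.91 on arrays 1 and 2. For calcitriol it differed by 0.28 (SE 0.24, adjusted p = 1.00 by limma), and by 0.46 without the arrays numbered 3 (SE 0.08, adjusted p = 0.251, and 0.0545 with the array number as a block). Between calcitriol and calcidiol it differed by -0.06 on the 18 arrays (adjusted p = 0.997) and by 0.51 without the arrays numbered 3 (adjusted p = 0.0962). That last difference passed with the block (adjusted p = 0.0198), in a comparison where 0.213% of all genes were called. The other class C receptors measured were 8 of 21 listed, of which 7 were tested and 0 called, with an averaged median of 0.05 for calcitriol and 0.06 for calcidiol (0.03 and 0.085 without the arrays numbered 3), next to -0.01 and -0.02 over all genes. Gprc6a, a close relative of the receptor, was not analysed here.

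**Figure D4:**
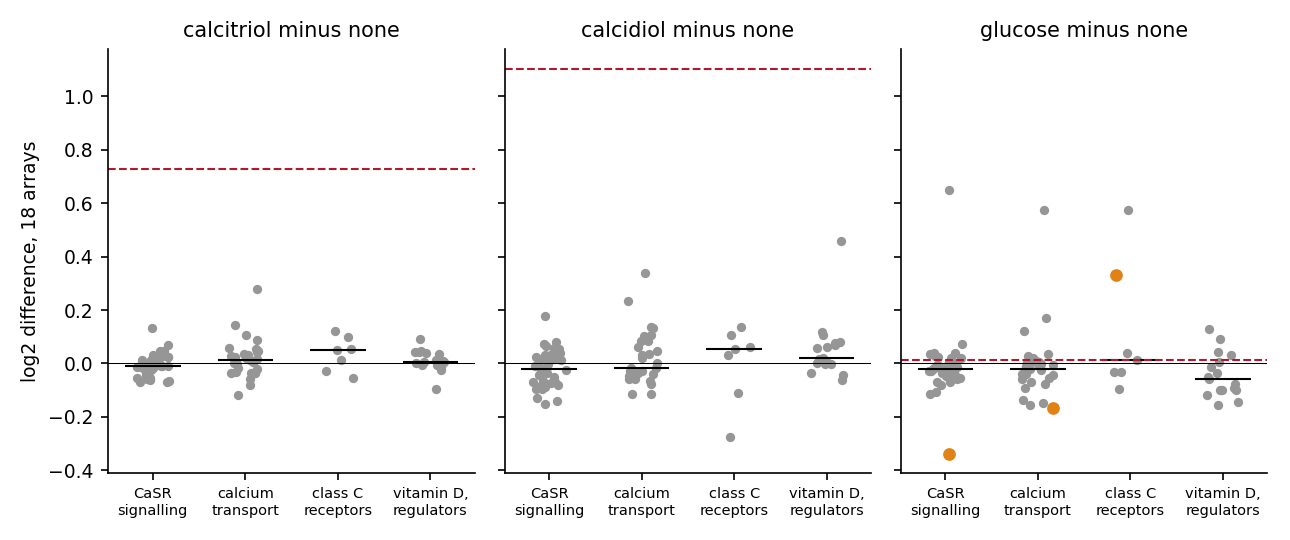
Log2 differences over 18 arrays of the tested members of 4 gene lists, averaged over glucose states for calcitriol minus none and calcidiol minus none and over pretreatments for glucose minus none, with the list median as a bar and genes called by limma in orange. The dashed line is Casr, at 0.73, 1.10 and 0.01, and in the 2 vitamin D panels it lies above every plotted gene. S100g, listed but not tested, is not plotted.

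After glucose, single genes of these lists passed the test. Averaged over the pretreatments limma called 332 genes, 138 higher and 194 lower, which is 3.37% of those tested. Of the 39 signalling genes 1 was called, Rnf19a, which encodes dorfin, an E3 ubiquitin ligase that acts on the human receptor. Its log2 signal was 7.82 to 8.31 with a median of 7.99 on the 9 arrays with glucose, and 7.93 to 8.57 with a median of 8.40 on the 9 without. It fell by 0.34 (SE 0.08, adjusted p = 0.0391 by limma), and by 0.40 without the arrays numbered 3 (adjusted p = 0.0208). The call was lost when any 1 of 12 of the 18 arrays was left out, with an adjusted p of 0.00848 to 0.0955 and a difference of -0.39 to -0.30. Rgs2, a regulator that shortens Gq signalling, was at 6.29 to 7.49 with glucose and at 5.90 to 6.99 without, a difference of 0.65 that did not pass (adjusted p = 0.0608). It passed without the arrays numbered 3, at 0.68 (adjusted p = 0.00901), where 2 of the 39 were called against 9.94% of all genes. With the array number as a block, Rnf19a and Rgs2 were called on the 18 arrays, against 9.55% of all genes, and 3 of the 39 without the arrays numbered 3, against 15.9%. In a single pretreatment 0 were called on the 18 arrays, where 0.0% of all genes were. Without the arrays numbered 3 again 0 were called, where 1.89% of genes were called after calcitriol, 1.35% after calcidiol and 1.06% without vitamin D. With the block as well, 1 was called after calcitriol, against 4.54% of genes, and 0 after calcidiol or without vitamin D, against 2.45% and 1.78%. The median of the list was -0.02, next to -0.03 over all genes.

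Of the 29 calcium genes 1 was called after glucose, which is 1 of 29 against 3.37% of all genes. Stim2, the calcium sensor of the endoplasmic reticulum that opens store-operated channels, fell by 0.17 (SE 0.04, adjusted p = 0.0392 by limma), with 8.14 to 8.40 on arrays with glucose and 8.26 to 8.50 on arrays without, and by 0.24 without the arrays numbered 3. Orai2, a subunit of those channels, differed by 0.57 (adjusted p = 0.0530, and 0.0182 with the array number as a block), and by 0.85 without the arrays numbered 3, where it passed. Its log2 signal on arrays 1 and 2 was 8.85 to 9.29 with glucose and 8.04 to 8.31 without. Without the arrays numbered 3 the sodium-calcium exchanger gene Slc8a2 and the calcium pump gene Atp2b2 passed too, at 0.28 and -0.20, which makes 4 of the 29, where 9.94% of all genes were called. Among the class C receptors the orphan receptor gene Gprc5c rose by 0.33 (adjusted p = 0.0361), with 9.36 to 10.11 with glucose and 9.27 to 9.67 without, and by 0.49 without the arrays numbered 3. Grm2, a metabotropic glutamate receptor gene, differed by 0.57 (adjusted p = 0.0704, and 0.0149 with the block), and by 0.81 without the arrays numbered 3, where it passed. Gprc5c was thus 1 of 7 called, and Gprc5c and Grm2 were called without the arrays numbered 3, on the same background of 3.37% and 9.94%. Of the 17 vitamin D and regulator genes 0 were called on the 18 arrays and without the arrays numbered 3, against 3.37% and 9.94% of all genes. With the block on 18 arrays 1 was called, Ncoa2, a nuclear receptor coactivator gene, at -0.12 (adjusted p = 0.0406), where 9.55% of all genes were called. Among 16 tested beta-cell markers 2 were called, where 3.37% of all genes were. Kcnj11, a potassium channel gene of the ATP-sensitive kind, and Neurod1, a transcription factor gene, fell by 0.23 (adjusted p = 0.0201 by limma) and 0.16 (adjusted p = 0.0392). On arrays 1 and 2 alone they fell by 0.29 and 0.23, and 5 of the 16 were called, against 9.94% of all genes. With 1 of the 18 arrays left out at a time, the calls were lost for Stim2 and Gprc5c with 13 arrays each, for Neurod1 with 12 and for Kcnj11 with 3, and the adjusted p stayed under 0.1 for each of them.

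Marker genes of other cells were read beside the high Casr values. The mean log2 signal of the 16 measured of 18 beta-cell markers was 10.95 and 10.97 on calcidiol arrays 3 with and without glucose, the lowest of the 18 arrays, against 11.00 to 11.15 on the others. The mean of 6 of 7 markers of other islet cells was 6.38 and 6.25 on these 2 arrays, also the lowest, against 6.49 to 6.82 elsewhere. Gcg, the glucagon gene, had a log2 signal of 10.20 and 10.27 there and 11.32 to 12.16 on the other 16 arrays. For 6 of 12 markers of connective tissue, endothelial, blood, duct and acinar cells the mean was 6.15 and 6.18 on these 2 arrays and 5.78 to 6.36 elsewhere. No endothelial marker was among the 6, and only 1 of them, Sox9, passed the filter. Sox9 was at 8.78 and 8.70 on these 2 arrays with and without glucose, and at 7.44 to 8.86 on the other 16. The 4 markers of parathyroid and thyroid C cells, which use the receptor, were not analysed here. No marker is at 0 on this scale, and the part of other cells in the Casr signal was not tested. In RNA of whole cultures, a few cells with much Casr and many cells with little cannot be told apart.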

How the data were processed

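Gene expression was measured on 18 rat arrays, 1 per sample, in 6 groups of 3 taken from the sample labels. The deposited values are log2 signals. RMA and Partek are listed in the submitters' processing notes, with no role, order or version, and their settings and the annotation version were not given in the sources used here. No further scaling was applied. Of the series matrix's 29214 probe sets, the 17017 of the attached table had identical values. With arrays there is no read depth, and their number limits the precision.

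Names are those of the attached table. Of 13136 symbols, 11287 were current in RefSeq's GRCr8 table, 1021 were older and 828 were unmatched and kept. A gene with several probe sets took that with the highest mean, and genes in the lowest 25% of mean signal (under 6.38) were left out. One limma model of 6 group means (limma 3.58.1, R 4.3.3, 12 residual degrees of freedom) gave 13 comparisons, with Benjamini-Hochberg adjustment over 9852 genes and a threshold of 0.05. Other steps used Python 3.11.15, pandas 2.3.3, numpy 2.4.6, scipy 1.17.1 and matplotlib 3.10.9. Promoters came from RefSeq's GRCr8 table, where 8 of the 9 genes looked up had an entry.

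Casr and the gene lists were chosen with earlier results of these data known. Named were Casr on every array, the members of each list called in a comparison described or else the 3 with the smallest p, the 8 genes most like and 4 least like Casr, and Gnaq, Gna11, Vdr and Txnip. S100g, Nr4a1, Cacnb1, Rgs2, Orai2, Grm2, Slc8a2, Atp2b2, Ncoa2, Gnai1 and the genes named beside Casr in the pair of differences were named after their values were seen. Some genes the rule picked are not named.

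The numbers 1 to 3 in the labels were checked for pairing by correlating the deviations of same-numbered arrays from their group means. Every correlation exceeded 0.1 in 8 of 9 comparisons, and the lowest, 0.0533, was in calcidiol against none without glucose. Arrays of different numbers were not correlated, so this check cannot tell pairing from a shift common to the arrays numbered 3. The labels state no pairing. Alternatives were the number as a block, arrays numbered 3 left out, each array left out, other filters, scaling, probe set rule, variance model and source table. On simulated data with 9852 genes, the fit recovered 98% of 1 log2 changes and 82% of 0.5 log2 changes for calcitriol against none without glucose on 18 arrays, and 91% and 50% on 12 arrays. The simulated noise was independent between arrays, with each gene's SD within groups taken from all 18 arrays in both runs. It held no deviations shared by arrays of the same number, so these shares do not give the power of the real fits.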

Additional observations from a re-analysis of the deposited data

How the results depend on the processing

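Median centring, quantile normalisation and the series matrix each moved every Casr difference by at most 0.03 log2. Leaving out 1 array at a time moved the averaged Casr difference between 0.64 and 0.87 for calcitriol and between 0.56 and 1.39 for calcidiol, against no vitamin D, and between -0.66 and 0.17 for calcitriol against calcidiol, where the sign turned. For glucose against none, it moved between -0.94 and 1.199 after calcidiol and between -0.34 and 0.38 averaged over pretreatments, where the sign turned as well. The genes called of the 39 for receptor signalling, which were 1 for glucose averaged over pretreatments, were 2 with the replicate block, 2 without the arrays numbered 3 and 3 with both changes, and ran from 0 to 2 with 1 array left out. The block thus added Rgs2 (adjusted p = 0.0191 by limma) on 18 arrays, and on 12 arrays Gnai1 (adjusted p = 0.0450). After calcitriol, glucose gave 0 such genes, and 1 without the arrays numbered 3 with the replicate block. The block moved the count of all genes called for glucose averaged over pretreatments to 941, against 332, and changed none of the 0 counts of signalling genes for vitamin D. In the other 11 comparisons the count of signalling genes was 0 under every alternative run. Of the 8 genes most like Casr by Spearman's rho, 4 were among the 8 highest by Pearson's r and 3 without the arrays numbered 3, while 8 were without the 2 arrays farthest from the median and 7 after quantile normalisation. For Rnf19a, Stim2, Gprc5c, Kcnj11 and Neurod1, the 5 listed genes called after glucose, 55 of the values recomputed under alternatives lost the call and 0 reversed. The cause of these losses was not tested.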
